A study of Drosophila melanogaster with 6 samples.

Results

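The urate genes described here are Uro, ry, mal and cin, which in Drosophila melanogaster make urate (ry), break it down (Uro) or supply the cofactor needed to make it (mal and cin). They were chosen by FlyBase symbol, and all 4 were found among the 17611 genes of the deposited count table. RNA came from Malpighian tubules, which form the kidney of the insect, dissected from tumour flies (heterozygous for esg-GAL4, UAS-GFP and tub-GAL80TS and for UAS-yki3SA) and from control flies, which carried the same driver, GFP and GAL80 transgenes without UAS-yki3SA. The yki3SA transgene encodes an active form of Yorkie, the growth regulator of the Hippo pathway, and esg-GAL4 drives it in intestinal progenitors, so that flies develop gut tumours. Virgin flies of both groups spent 6 to 8 days at 18 °C and then 8 days at 29 °C, which inactivates the GAL80 repressor. Each group had 3 libraries made from poly-A RNA of 80 tubules per genotype, with 34640437 to 49338340 counts per library. No label ties the libraries of a group to separate cultures, so the p-values rest on the spread among these 6 libraries, and that spread may be technical.

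Purines that are not reused are broken down to hypoxanthine and xanthine. Xanthine dehydrogenase, encoded by ry (rosy), oxidises both to urate, and urate oxidase, encoded by Uro, converts urate in peroxisomes on the way to allantoin. In adult flies urate oxidase is known from the principal cells of the tubule, the cell type that carries most of its ion secretion. Xanthine dehydrogenase works only with a molybdenum cofactor: cin (cinnamon), related to mammalian gephyrin, acts late in cofactor synthesis, and mal (maroon-like) encodes the sulfurase that gives the cofactor the sulfur which xanthine dehydrogenase and the aldehyde oxidases need. The names of ry, mal and cin come from eye colour mutants, since xanthine dehydrogenase also oxidises pteridine pigment precursors.

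By FlyBase identifier, the Ensembl annotation of assembly BDGP6 places Uro (FBgn0003961) on chromosome 2L at 7780085 to 7781415, with 2 exons and 1262 exonic bases. It places ry (FBgn0003308) on chromosome 3R at 13032528 to 13038020, with 4 exons and 4337 exonic bases. The sulfurase gene mal (FBgn0002641) lies on chromosome X at 20429675 to 20433210 and has 3209 exonic bases. The cofactor gene cin (FBgn0000316) lies on chromosome X at 255674 to 258469 and has 2110 exonic bases, of which the exons of other genes overlap 140 or fewer. All 4 are on the forward strand, and exons of Uro, ry and mal overlap no exon of another annotated gene. The nearest coding gene is CG11710 for mal, at 2 bases, and CG7164 for Uro, at 50 bases. These positions describe the annotation only, because the build used for counting is not given in the sources used here.

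The tissue label was checked against markers. All 13 principal cell and all 10 stellate cell markers of the tubule had counts. The 12 principal cell markers other than Uro summed to 13020 to 15580 CPM in tumour and 18340 to 25720 CPM in control libraries, where CPM, the read count relative to library size, is scaled by TMM, the edgeR library scaling. Marker sums of several tissues that a dissection can carry were lower in tumour tubules, and that of haemocytes was higher. Single markers are said to rise or fall at an adjusted p under 0.05 (edgeR). By that measure 14.8% of all genes tested rose and 13.0% fell. Of 8 fat body markers, 7 of them tested, 4 fell. The list summed to 318.3 to 569.2 CPM in tumour and 1817 to 3901 CPM in control libraries, led by Yp2, Yp1 and FASN1 by control level. Fbp1 and Fbp2 went the other way without passing, both highest in tumour replicate 1. They averaged 1.11 and 1.445 CPM in tumour and 0.288 and 0.895 CPM in control libraries. Of 12 midgut markers, led by Mur18B, alphaTry and Jon65Aiv, 10 fell, Mur18B among them. Per exonic length Mur18B ranked 1 in control and 3 in tumour tubules among the genes tested. Whether its reads came from the tubule or from gut tissue was not tested. Without Mur18B, which held nearly all of that list, the midgut markers summed to 16.2 to 104.7 CPM in tumour and 240.5 to 701.2 CPM in control libraries. Of 7 germline and eggshell markers, led by Vm26Aa, Cp38 and Vm26Ab, 4 fell, all of them eggshell genes (Cp36, Cp38, Vm26Aa and Vm26Ab). The list summed to 2.744 to 11.71 CPM in tumour and 84.5 to 196 CPM in control libraries. The germline genes osk, bam and vas averaged 2.01, 1.16 and 1.78 CPM in tumour and 2.01, 0.865 and 2.11 CPM in control libraries. None of these germline genes passed. Of 7 enteroendocrine markers, 4 of them tested, 1 rose (CCHa1) and 1 fell (CCHa2), and the list summed to 6.381 to 8.347 CPM in tumour and 11.91 to 18.59 CPM in control libraries. CCHa2 alone averaged 2.25 CPM in tumour and 11.6 CPM in control libraries, while CCHa1 averaged 2.88 CPM in tumour and 0.393 CPM in control libraries and AstA 1.59 CPM in tumour and 0.995 CPM in control libraries. The sum of 5 haemocyte markers was higher in tumour tubules, at 246.6 to 282.3 CPM in tumour and 182.5 to 218 CPM in control libraries. Of the 4 tested, 1 rose, namely crq. crq held most of that sum, and the haemocyte gene Hml averaged 4.11 CPM in tumour and 4.33 CPM in control libraries. No marker of these lists was at 0 in every library, and the part of such tissue in the results below was not tested. The transcript of yki, the gene of the transgene, was at 76.95 to 90.85 CPM in tumour and 63.48 to 79.57 CPM in control libraries and gave no check of the labels (adjusted p = 0.331, edgeR). esg, the gene of the driver, was at 2.207 to 6.781 CPM in tumour and 5.52 to 6.105 CPM in control libraries. Whether yki3SA acted in cells of the tubule or through the gut cannot be told apart in this design.

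Setting tumour against control tubules asks how the renal transcripts for making and breaking down urate differ when the fly bears a gut tumour. Of the 4 urate genes 1 rose, the sulfurase gene mal, and the other 3 did not pass an adjusted p of 0.05 (edgeR quasi-likelihood test, adjusted over all 9789 genes tested). Of all genes tested 14.8% rose and 13.0% fell, so 1 call among 4 is near the background. The transcript of ry, the enzyme that makes urate, was at nearly equal mean levels in both groups. That of Uro, the enzyme that breaks it down, was lower on average in tumour tubules but overlapped control. All 4 genes passed the filter on low counts.

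Xanthine dehydrogenase, the urate-producing enzyme, comes first. ry was at 342.6, 362.6 and 277.9 CPM in tumour replicates 1, 2 and 3, against 364.8, 234.3 and 372.7 CPM in control replicates 1, 2 and 3. The lowest of the 6 values was control replicate 2, and the groups overlapped across nearly their whole range. The mean was 327.7 ± 44.3 CPM in tumour and 323.9 ± 77.7 CPM in control libraries (SD, n = 3 each). On the log2 scale tumour over control gave 0.02 ± 0.20 (SE), with a 95% interval of -0.44 to 0.48, and did not pass (adjusted p = 0.963, edgeR). In linear terms the interval runs from 0.737-fold to 1.39-fold, so a change in either direction within that range cannot be told from none here. The sign of the estimate depended on the scaling: it was -0.05 with RLE size factors and 0.30 with library totals alone.

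Uro was one of the most abundant transcripts of the tubule. It was at 1586, 1381 and 860.9 CPM in tumour replicates 1, 2 and 3, against 1897, 1881 and 1537 CPM in control replicates 1, 2 and 3. Tumour replicate 3 was the lowest of all, and tumour replicate 1 was the only tumour library above the lowest control library. The mean was 1276 ± 374 CPM in tumour and 1772 ± 203 CPM in control libraries (SD, n = 3 each). The coefficient of variation was 29.3% among tumour and 11.5% among control libraries. The log2 fold change was -0.47 ± 0.22 (SE), with a 95% interval of -0.99 to 0.04, and did not pass (adjusted p = 0.15, unadjusted p = 0.0665, edgeR). Without tumour replicate 3 it was -0.26, and without tumour replicate 1 it was -0.71, so its size rested on single libraries. Scaled by library totals only, it was -0.20. Such scaling shifts the log2 fold changes of the genes tested by a median of 0.287 relative to TMM. In bulk tubule RNA, fewer cells of a type and less RNA per cell cannot be told apart, which applies to Uro as a gene of principal cells. In the same libraries 3 of 13 principal cell markers fell, where 13.0% of all genes tested fell. These were the phosphate transporter gene NaPi-T, the potassium channel gene Irk3 and the Capa receptor gene CapaR. The other 10, Uro among them, did not pass, and the log2 fold changes of ct and Irk2 were 0.02 and 0.14. Of 10 stellate cell markers 4 fell and 1 rose (Esyt2), with sums of 2183 to 2383 CPM in tumour and 2789 to 3175 CPM in control libraries. The part of either cell type's share in the Uro values was not tested.

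The sulfurase gene mal rose 1.51-fold. It was at 34.4, 36.0 and 39.9 CPM in tumour replicates 1, 2 and 3, against 23.5, 27.6 and 21.8 CPM in control replicates 1, 2 and 3. Every tumour library lay above every control library, as for 26.8% of all genes tested, while groups did not overlap in either direction for 46.9%. The mean was 36.8 ± 2.86 CPM in tumour and 24.3 ± 2.97 CPM in control libraries (SD, n = 3 each). The log2 fold change was 0.60 ± 0.13 (SE), with a 95% interval of 0.30 to 0.90 (adjusted p = 0.0129, edgeR). The change was positive under every alternative run, between 0.53 and 0.89 on the log2 scale. The call was lost without control replicate 3, the library with the lowest mal level (adjusted p = 0.0515), and the adjusted p was 0.00431 to 0.0515 across the alternatives (edgeR, DESeq2 and limma-voom).

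The cofactor synthesis gene cin was at 47.65, 47.08 and 51.3 CPM in tumour replicates 1, 2 and 3, against 40.15, 39.7 and 46.92 CPM in control replicates 1, 2 and 3. All tumour libraries lay above all control libraries, but tumour replicate 2 and control replicate 3 were nearly equal. The mean was 48.7 ± 2.27 CPM in tumour and 42.3 ± 4.05 CPM in control libraries (SD, n = 3 each). The log2 fold change of 0.20 ± 0.12 (SE) did not pass with TMM scaling (95% interval -0.06 to 0.47, adjusted p = 0.222, edgeR). With library totals alone it was 0.49 and passed (adjusted p = 0.0221), on a scaling where 31.5% of all genes tested rose and 8.48% fell.

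**Figure D1:**
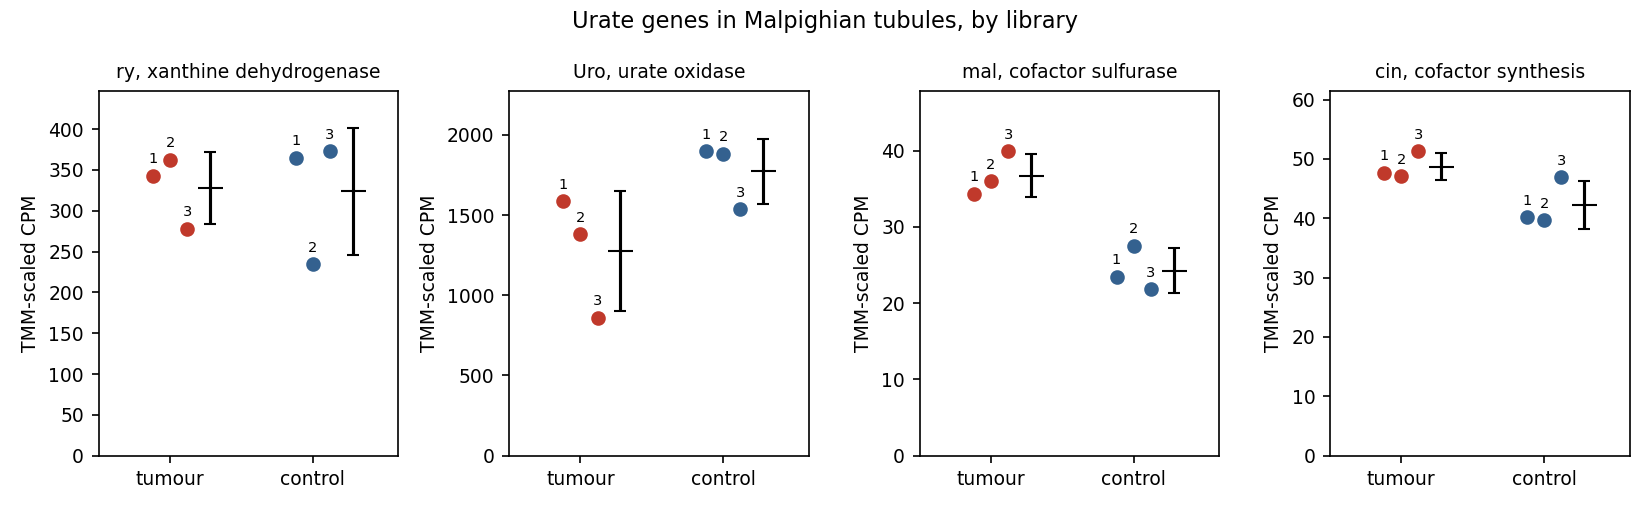
TMM-scaled CPM of the 4 urate genes in each library, with tumour libraries on the left and control libraries on the right of each panel. Points are libraries marked with their replicate number, and bars show the mean and SD of 3 libraries. All 3 tumour libraries lie above all 3 control libraries for mal and narrowly for cin, while ry overlaps and Uro is lowest in tumour replicate 3.

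Per exonic length, which allows levels of different genes to be set side by side, the 4 transcripts differed widely and kept 1 order in both groups. The level was 1011 ± 296 CPM per kb in tumour and 1404 ± 161 CPM per kb in control libraries for Uro. It was 75.6 ± 10.2 and 74.7 ± 17.9 CPM per kb in tumour and control libraries for ry, 23.1 ± 1.08 and 20.03 ± 1.92 CPM per kb for cin, and 11.5 ± 0.89 and 7.57 ± 0.924 CPM per kb for mal (SD, n = 3 each). Ranges over libraries did not overlap between neighbours in this order within either group. Among 9768 tested genes with an annotated length, Uro ranked 82 in tumour and 74 in control tubules, and ry ranked 972 in tumour and 1000 in control tubules. The transcript for urate breakdown stood above that for urate production in every library.

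**Figure D2:**
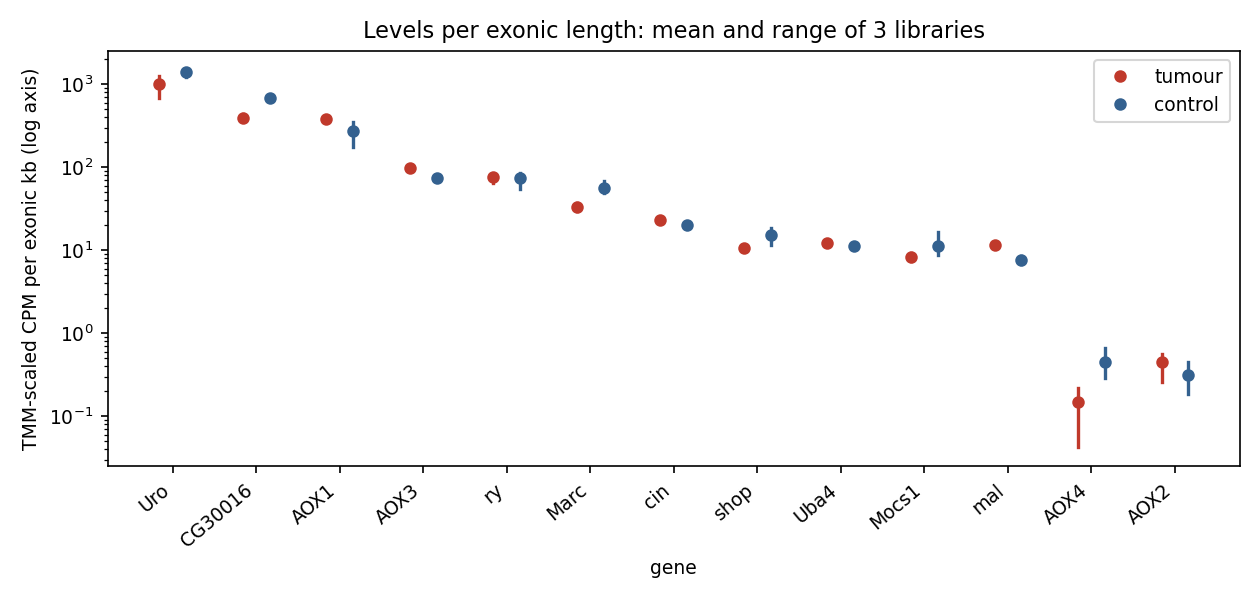
Levels per exonic kilobase (TMM-scaled CPM per kb, log axis) of the urate genes, of CG30016, and of other molybdenum cofactor and molybdenum enzyme genes. Points are means of 3 libraries and lines the range, with tumour left of control for each gene. Uro is highest, with tumour at 1011 and control at 1404, and AOX2 and AOX4 are lowest, all under 1 CPM per kb.

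Ratios of counts within a library do not depend on the scaling between libraries. The ratio of Uro to ry counts was 4.63, 3.81 and 3.10 in tumour replicates 1, 2 and 3, against 5.20, 8.03 and 4.12 in control replicates 1, 2 and 3. The highest value came from control replicate 2, where ry was lowest, and the groups overlapped. On the log2 scale tumour was lower by a difference of -0.55 (exact permutation test over libraries, two-sided, p = 0.2). With 3 libraries against 3 that test cannot go below 0.1. The ratio of mal to cin counts was 0.721, 0.764 and 0.779 in tumour replicates 1, 2 and 3, against 0.585, 0.695 and 0.465 in control replicates 1, 2 and 3. Here every tumour library lay above every control library, with a log2 difference of 0.40 and the smallest p the design allows (exact permutation test, two-sided, p = 0.1). For mal to ry the log2 difference was 0.56 and the groups overlapped (exact permutation test, two-sided, p = 0.3). Adjusted over the 4 ratios computed, p was 0.4 for each (exact permutation tests with Benjamini-Hochberg adjustment).

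**Figure D3:**
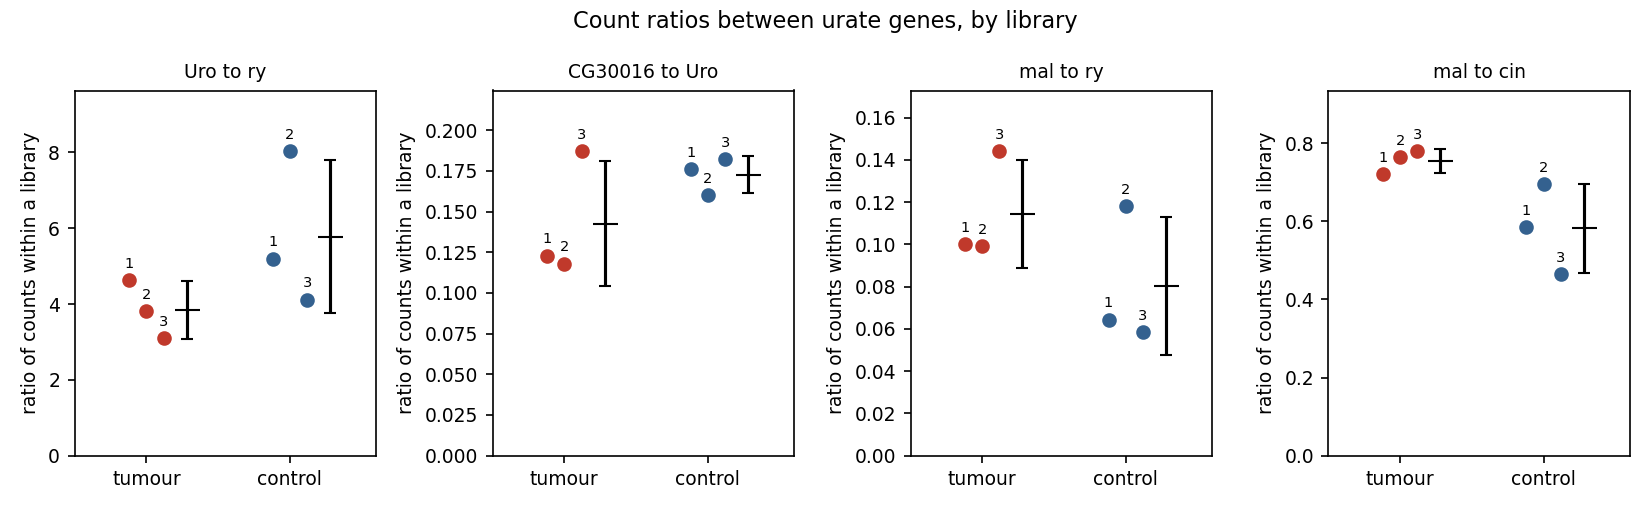
Ratios of counts between pairs of genes within each library, with tumour left and control right in each panel. Points are libraries marked with their replicate number, and bars show the mean and SD of 3 libraries. The Uro to ry ratio spans 3.10 to 4.63 in tumour and 4.12 to 8.03 in control libraries, and the mal to cin ratio is above 0.7 in tumour libraries alone.

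Downstream of urate oxidase, the transcript that follows it in the pathway fell. CG30016 is listed in the deposited annotation as most similar to a bacterial 5-hydroxyisourate hydrolase, the enzyme that acts on the product of urate oxidase. It was at 195.1, 162.9 and 161.2 CPM in tumour replicates 1, 2 and 3, against 333.6, 301.3 and 279.4 CPM in control replicates 1, 2 and 3. Every tumour library lay below every control library, as for 20.1% of all genes tested. The mean was 173 ± 19.1 CPM in tumour and 305 ± 27.3 CPM in control libraries (SD, n = 3 each), a 1.76-fold fall (log2 fold change -0.82 ± 0.13 SE, adjusted p = 0.00355, edgeR). The call held under every alternative run, with the adjusted p at 0.0178 or less. The ratio of CG30016 to Uro counts was 0.123, 0.118 and 0.187 in tumour replicates 1, 2 and 3, against 0.176, 0.160 and 0.182 in control replicates 1, 2 and 3. That ratio overlapped between groups, with tumour replicate 3 highest, so whether CG30016 fell more than Uro was not resolved (log2 difference -0.31, exact permutation test, two-sided, p = 0.4). CG6106, listed there as similar to a bacterial allantoinase, stayed under 1.1 CPM in every library (adjusted p = 0.554, edgeR).

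Among the enzymes that use the molybdenum cofactor and the other genes that make it, 1 rose and 1 fell of 8 tested. That is near the background, where 14.8% of all genes tested rose and 13.0% fell. Their median log2 fold change was -0.16, against 0.08 over all genes tested. AOX3, an aldehyde oxidase gene of the family that mal also serves, was at 408.6, 454.0 and 468.6 CPM in tumour replicates 1, 2 and 3, against 319.4, 336.5 and 368.4 CPM in control replicates 1, 2 and 3. Its tumour libraries all lay above its control libraries, as for 26.8% of all genes tested. The 1.30-fold rise passed narrowly (adjusted p = 0.0478, edgeR). That call was lost in all fits that left out 1 library and with 2 other scalings and 2 other filters, with the adjusted p at 0.00554 to 0.144 across the alternatives. Marc encodes the mitochondrial amidoxime reducing component, another molybdenum enzyme. It was at 44.7, 35.4 and 37.0 CPM in tumour replicates 1, 2 and 3, against 80.8, 61.9 and 58.7 CPM in control replicates 1, 2 and 3. It fell 1.72-fold (log2 fold change -0.78 ± 0.16 SE, adjusted p = 0.00947, edgeR), and the call held under every alternative run. Its tumour libraries all lay below its control libraries, as for 20.1% of all genes tested.

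AOX1, the most abundant aldehyde oxidase gene, was at 1556, 1651 and 1639 CPM in tumour replicates 1, 2 and 3, against 1492, 1244 and 748.3 CPM in control replicates 1, 2 and 3. The tumour libraries were close together and control replicate 3 stood low. The difference did not pass (log2 fold change 0.48 ± 0.23 SE, adjusted p = 0.163, edgeR). Per exonic length AOX1 was at 382 CPM per kb in tumour and 275 CPM per kb in control libraries, well above ry. AOX2 and AOX4 were near or under 2.6 CPM in every library, and neither passed (adjusted p = 0.46 and 0.0985, edgeR). The log2 fold change of AOX4 was -1.61 ± 0.65 (SE). Its tumour libraries all lay below its control libraries, as for 20.1% of all genes tested. The 4 aldehyde oxidase genes lie side by side on chromosome 3R between 15532137 and 15552833 and are related in sequence to each other and to ry, so how reads were split among them is uncertain. The sulfite oxidase gene shop, whose enzyme needs the cofactor without the added sulfur, was at 22.6 ± 1.91 CPM in tumour and 32.2 ± 7.73 CPM in control libraries (SD, n = 3 each, adjusted p = 0.0715, edgeR). Of the earlier cofactor genes, Mocs1 was at 18.7 ± 2.28 CPM in tumour and 25.9 ± 10.2 CPM in control libraries, and Uba4 at 21.2 ± 0.378 CPM in tumour and 19.0 ± 0.215 CPM in control libraries (SD, n = 3 each). Neither passed (adjusted p = 0.217 and 0.333, edgeR). Mocs2A and Mocs2B, which encode the subunits of molybdopterin synthase, were listed at 0 counts in all 6 libraries. The annotation gives both genes the same 1420 exonic bases on 1 strand of chromosome 3R. These counts give no level for either gene.

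Upstream, genes of purine synthesis, interconversion and breakdown moved in both directions. Not all of their steps lead to hypoxanthine or xanthine. Of 23 tested genes of purine supply 7 rose and 4 fell, where 14.8% of all genes tested rose and 13.0% fell. Their median log2 fold change was 0.27. The number that rose was 2 to 5 without any 1 library and 14 with library totals alone. Adgf-A, a secreted adenosine deaminase that makes inosine and shares 97 exonic bases with Adgf-A2, was at 75.4 ± 9.41 CPM in tumour and 9.93 ± 0.887 CPM in control libraries (log2 fold change 2.92 ± 0.14 SE, adjusted p = 1.78e-05, edgeR). Adk2, listed in RefSeq under the older symbol AdenoK for adenosine kinase, rose 2.31-fold (adjusted p = 9.61e-04, edgeR). Of the genes for the first step of purine synthesis, Prat rose 1.56-fold and Prat2 fell 4.03-fold (adjusted p = 0.0249 and 7.46e-04, edgeR). Adgf-C, another adenosine deaminase gene, rose 1.72-fold. The calls of Prat and Adgf-C were lost in 4 and 5 of the 6 fits that left out 1 library. CG16758 and NT5E-2 act on nucleosides and nucleotides ahead of xanthine dehydrogenase. CG16758, annotated as a purine nucleoside phosphorylase, fell 3.26-fold to 4.39 ± 0.068 CPM in tumour, against 14.3 ± 3.25 CPM in control libraries. NT5E-2, annotated as similar to a secreted nucleotidase, fell to 284 ± 24.3 CPM in tumour, against 613 ± 56.1 CPM in control libraries (adjusted p = 9.31e-04 and 7.77e-04, edgeR). Gart, a purine synthesis gene, fell 1.88-fold, a call lost with library totals alone (adjusted p = 0.0511, edgeR). The nucleotidase gene veil, like Adgf-E, was listed at 0 in every library, and the exons of veil are covered by CG43110 on the opposite strand. Of the 109 tested genes that the deposited annotation assigns to purine metabolism, 22 rose and 15 fell, or 33.9%, against 27.8% of all genes tested.

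**Figure D4:**
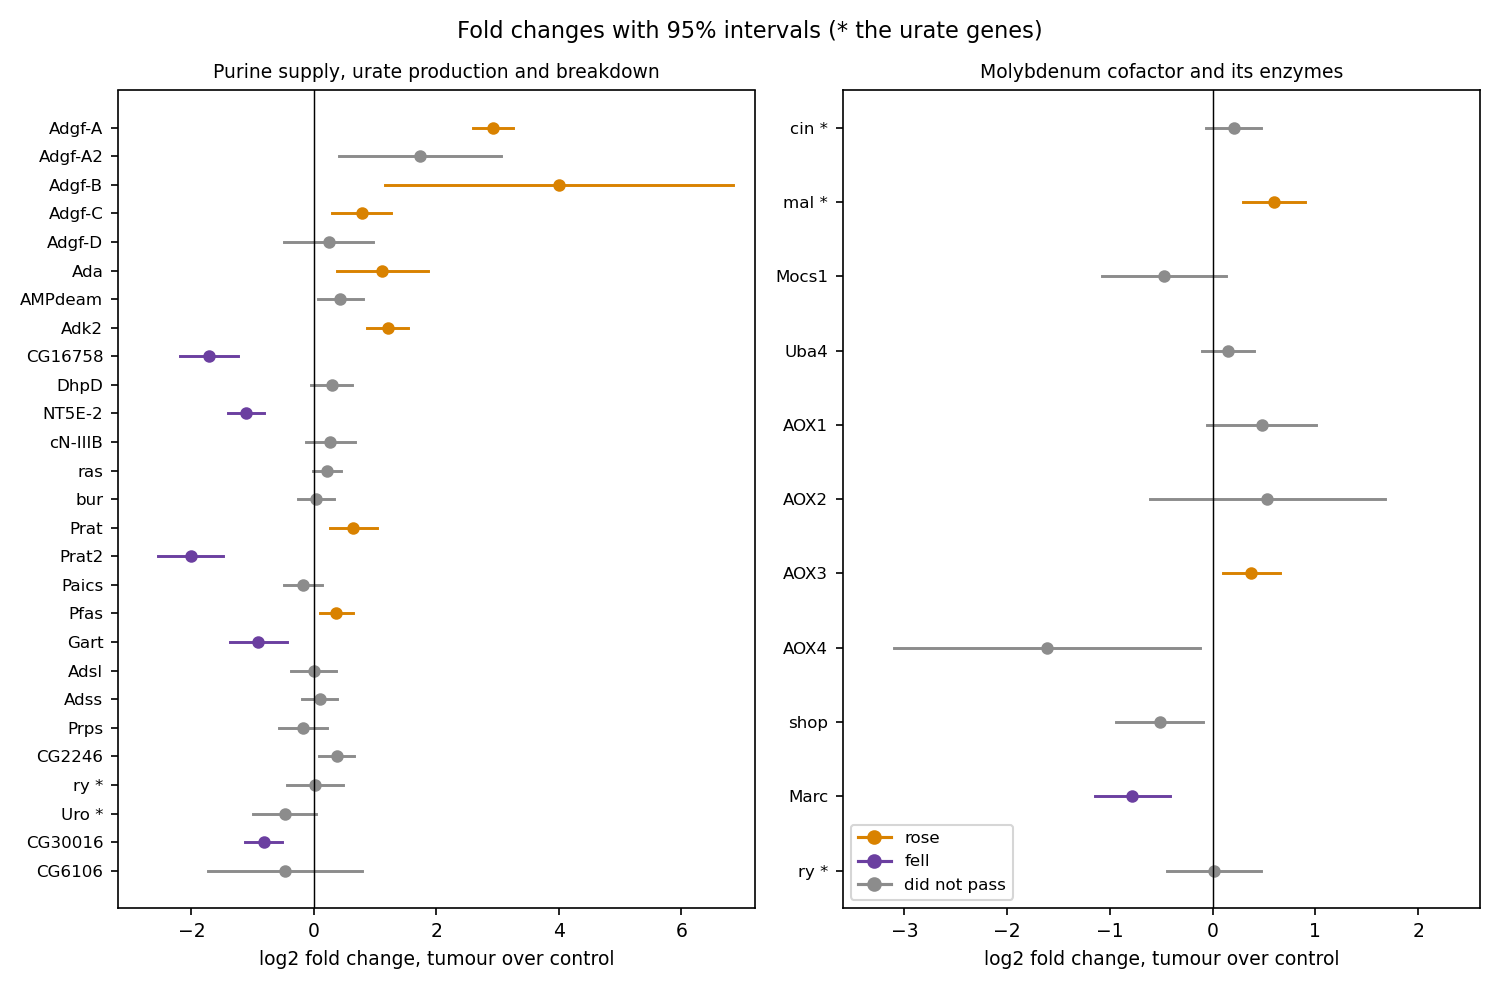
Log2 fold changes of tumour over control with 95% intervals (edgeR), for purine supply, urate production and breakdown on the left and for the molybdenum cofactor and its enzymes on the right, with the urate genes marked by an asterisk. Orange genes rose, purple genes fell and grey genes did not pass. The intervals of ry, Uro and cin reach 0, mal lies at 0.60 and CG30016 at -0.82, and the wide interval of Adgf-B comes from control libraries at or near 0 counts.

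Pteridine genes share xanthine dehydrogenase with the urate pathway. Of 12 tested genes of pteridine and eye pigment pathways 2 rose and 3 fell, where 14.8% of all genes tested rose and 13.0% fell. The median of the 12 was -0.004 on the log2 scale. The pteridine genes pr, for 6-pyruvoyl tetrahydropterin synthase, and Dhpr, for dihydropteridine reductase, rose 1.48-fold and 1.78-fold (adjusted p = 0.0182 and 0.0019, edgeR). The call of pr was lost without control replicate 3 or tumour replicate 3 (adjusted p = 0.0691 and 0.0524). Hn, the pterin-dependent phenylalanine hydroxylase, fell 3.41-fold and the pigment transporter gene st fell 2.77-fold. v, the tryptophan 2,3-dioxygenase of the brown pigment pathway, fell to 1.21 ± 0.286 CPM in tumour, against 4.83 ± 2.23 CPM in control libraries (SD, n = 3 each), a call lost without control replicate 3 (adjusted p = 0.0542, edgeR).

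Genes with the most similar profile were found by the root mean square difference of log2 CPM, centred on each gene's mean, over the 6 libraries. For Uro these were CG7768, PXo and Arv1, at differences of 0.105, 0.121 and 0.127. All 3 were rare, with group means of 0.678 to 2.07 CPM. For ry they were Alp5, CG14629 and Ppa (0.0881, 0.0917 and 0.0989). They shared its low value in control replicate 2, which follows from their choice by likeness to ry. For mal they were Ing5, CalpC and Unc-76 (0.0413, 0.0545 and 0.0664), whose higher level in tumour libraries follows from their choice by likeness to mal and is no separate result. For cin they were CG6013, CG2790 and Opbp (0.0301, 0.0398 and 0.0528). No 2 of the urate genes were among each other's 3 nearest genes.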

How the data were processed

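The deposited table holds raw counts of reads per FlyBase gene as the authors made them, for 3 tumour and 3 control libraries. Per the labels' protocols, RNA with an integrity number above 7 was poly-A selected and made into TruSeq libraries. TopHat, Cufflinks and HTSeq are the tools in the submitters' processing notes. What each did, its version, the genome build, the annotation and whether counting used strand were not given in the sources used here.

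Counts were analysed with edgeR 4.0.16 (R 4.3.3): filterByExpr by group (minimum count 10, minimum total 15), TMM, and the robust quasi-likelihood test, two-sided, with Benjamini-Hochberg adjustment over 9789 genes and a threshold of 0.05. The SE is the log2 fold change divided by the square root of F. Library totals were 34640437 to 49338340, so 3 counts, the limit that a count of 0 allows, are 0.0517 to 0.0911 TMM-scaled CPM, counting error only. Alternatives were other scalings and filters, a replicate block, DESeq2 1.42.0, limma-voom (limma 3.58.1) and leaving out each library. Ratios used scipy 1.17.1. The fit was also run on counts simulated without a difference in scaling between groups, so that run is no check of the scaling. Exonic lengths and positions came from the Ensembl BDGP6 annotation.

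The urate genes and lists were chosen with earlier results of these data known. Named list genes are those that passed, or the 4 with the smallest adjusted p where more than 6 passed in a direction. AOX1, AOX2, AOX4, shop, Mocs1, Uba4, Mocs2A, Mocs2B, veil, Adgf-E and CG6106 were named as list members after their values were seen. All ratios except Uro to ry, the purine annotation and the marker sums without 1 gene were added after the data were seen. Of the listed symbols, Pnp, Alln, Urah, Dl and nos had no match.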

Additional observations from a re-analysis of the deposited data

How the results depend on the processing

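Direction held for Uro, mal and cin under every alternative run, and for the Uro to ry ratio, which was between -0.768 and -0.288 without 1 library. The log2 fold change of ry was -0.047 with RLE size factors and with DESeq2, -0.0315 with upper-quartile factors and -0.0262 with a filter of 5 CPM in 3 libraries. Without 1 library it was between -0.172 and 0.129 for ry, -0.71 and -0.262 for Uro, 0.525 and 0.697 for mal and 0.156 and 0.286 for cin. With library totals alone 3079 genes rose and 830 fell, so that 78.8% of calls were higher, against 53.3% with TMM, and cin reached 0.493. On that scaling 3 cofactor and molybdenum enzyme genes, 14 purine supply genes and 5 pteridine and pigment genes rose. Without 1 library 865 to 1223 genes rose and 882 to 1141 fell, with 865 without tumour replicate 1 and 887 without control replicate 3.

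In the cofactor and molybdenum enzyme list 0 genes rose and 2 fell with RLE, upper-quartile factors or the 5 CPM filter, and 0 rose with no filter. In DESeq2 3 fell. Without 1 library 0 rose and 1 to 2 fell. The list held 4 genes at an unadjusted p under 0.05 in the edgeR test. Of purine supply genes 4 rose with the 5 CPM filter and 2 to 5 without 1 library, and 1 to 2 pteridine and pigment genes rose without 1 library. The cause was not tested.

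Replicate numbers are shared between groups, but correlations of same-numbered deviations were 0.0824, -0.0833 and 0.058. Not every library correlated best with its own number. These values show no pairing by number, but with 3 libraries per group they cannot exclude it. With a replicate block 1345 genes rose and 1193 fell, Uro was -0.513 and passed narrowly (adjusted p = 0.0498, edgeR), and the call of Adgf-C was lost (adjusted p = 0.0592). Depth limits AOX2, AOX4 and CG6106.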
